A study of Bos taurus with 30 samples.

Results

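The genes that copy DNA and those that divide the cell were followed in the embryonic disc (ED) and the extra-embryonic membranes (EEM) of day 15 bovine embryos that were produced in vitro (IVP) or in vivo (IVV). The set was a fixed list of 39 cattle genes, found by Entrez gene ID among the 35092 genes of the count table: 14 genes of DNA replication, 7 cyclins and kinases of G1 and the G1/S step, 16 genes of mitosis and 2 inhibitors of cyclin-dependent kinases. The list was drawn up by the genes' known roles, with earlier results of these data known, and its rule used no measured value.

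Poly(A)-selected RNA was sequenced in 30 libraries from 17 embryos, with 7 IVP and 9 IVV libraries of the ED and 6 IVP and 8 IVV libraries of the EEM. Both tissues were read in 13 embryos, 5 IVP and 8 IVV. IVP embryos came from slaughterhouse oocytes that were matured, fertilized and cultured without serum and moved to recipient cows on day 7, and IVV embryos came from superovulated, inseminated cows. All embryos shared the same Holstein sire and were flushed from the uterus on day 15.

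Few cows stood behind each group, as 2 recipients carried the IVP embryos and 2 donors the IVV embryos, so that procedure and cow cannot be told apart. Embryos are separate individuals but share a uterus and, for IVV, a dam. The paper reports that IVP embryos were shorter than IVV embryos. Embryos without a disc were discarded, a larger share of the IVP than of the IVV embryos, so the IVP embryos compared here are a selected part. Length, shape and sex of single embryos were not given in the labels. The level of XIST, the RNA that coats an inactive X, nearly coincided with the procedure, as given below. Sex and procedure may therefore be nearly confounded, and an effect of sex could not be told apart from one of the procedure. In such bulk tissue, fewer cells of a type and less RNA per cell cannot be told apart either.

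A dividing cell passes through G1, copies its DNA in S phase and separates the chromosomes in mitosis. Cyclins D and E with their kinases drive the cell into S phase, where the MCM helicase opens the DNA at licensed origins, and cyclin B with CDK1 drives it into mitosis. The inhibitors CDKN1A (p21) and CDKN1B (p27) slow these kinases, and transcripts of most mitosis genes build up late in the cycle. Ruminant embryos elongate between hatching and implantation, mainly through the growth of the trophoblast and the hypoblast that form the EEM.

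Libraries held between 48713218 and 63037371 counts on genes, so counting error was small for nearly all of these genes. Values are given in CPM, counts per 1e6 counts of the library after scaling with TMM factors, a normalization by a trimmed mean over genes. CPM grows with transcript length, so levels were compared between samples and not between genes. Of 6 epiblast markers, POU5F1, NANOG and LIN28B had higher means in the ED than in the EEM of both procedures. DPPA2 did not separate the tissues, with means of 3.91 CPM in the ED and 3.82 CPM in the EEM of IVP, and 1.70 and 1.90 CPM in IVV. The epiblast markers SOX2 and UTF1 were at 0 in all libraries. POU5F1 had a mean of 29.2 ± 9.01 CPM in the 7 IVP discs (SD) and 94.99 ± 63.2 CPM in the 9 IVV discs (SD), and at most 2.435 CPM in any EEM library. The trophoblast genes were abundant in both tissues: the sum of 9 markers ran from 2810 to 19800 CPM in the ED of IVP, 7900 to 11900 CPM in the ED of IVV, 5920 to 31200 CPM in the EEM of IVP and 7540 to 20400 CPM in the EEM of IVV. The ED libraries thus held trophoblast transcripts over a range that overlapped that of the EEM.

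Of the 39 genes, 38 passed the filter on low counts. The gene that did not was CCND1, the main D-type cyclin of many tissues, which was listed at 0 in all 30 libraries. SOX2, UTF1 and the ribosomal protein gene RPL35A were also at 0 in all libraries, as were 2413 of 20847 protein-coding genes. A 0 shared with genes that cells generally use says only that CCND1 was listed at 0. Library preparation was not stranded, and 6 of the 39 genes overlap another protein-coding gene in the ARS-UCD2.0 annotation (CDT1, TYMS, CCNE2, CCND1, CCNA2 and PLK1), so reads of the neighbour may be among their counts.

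The first question was whether the balance of S-phase and mitotic transcripts differed between procedures or tissues. For each library the mean log2 CPM of the 14 replication genes and that of the 16 mitosis genes were taken, each gene centred on its mean over the 30 libraries. In the ED the replication mean was -0.03 ± 0.19 (SD, n = 7) in IVP and -0.04 ± 0.18 (SD, n = 9) in IVV. In the EEM it was 0.00 ± 0.18 (SD, n = 6) in IVP and 0.07 ± 0.25 (SD, n = 8) in IVV. These differences were smaller than the spread between embryos.

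The mitosis mean was 0.03 ± 0.39 in the ED of IVP and -0.03 ± 0.15 in the ED of IVV, and 0.02 ± 0.18 and -0.01 ± 0.21 in the EEM (SD, n as above). Its range was widest in the ED of IVP, from -0.60 to 0.48, and the IVV range of -0.28 to 0.16 lay within it. The replication mean minus the mitosis mean was -0.05 ± 0.26 and -0.02 ± 0.20 in the ED of IVP and IVV, and -0.02 ± 0.16 and 0.08 ± 0.28 in the EEM. All 4 groups overlapped in all 3 measures, and no test was made on these means because the genes were listed with results known.

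**Figure D1:**
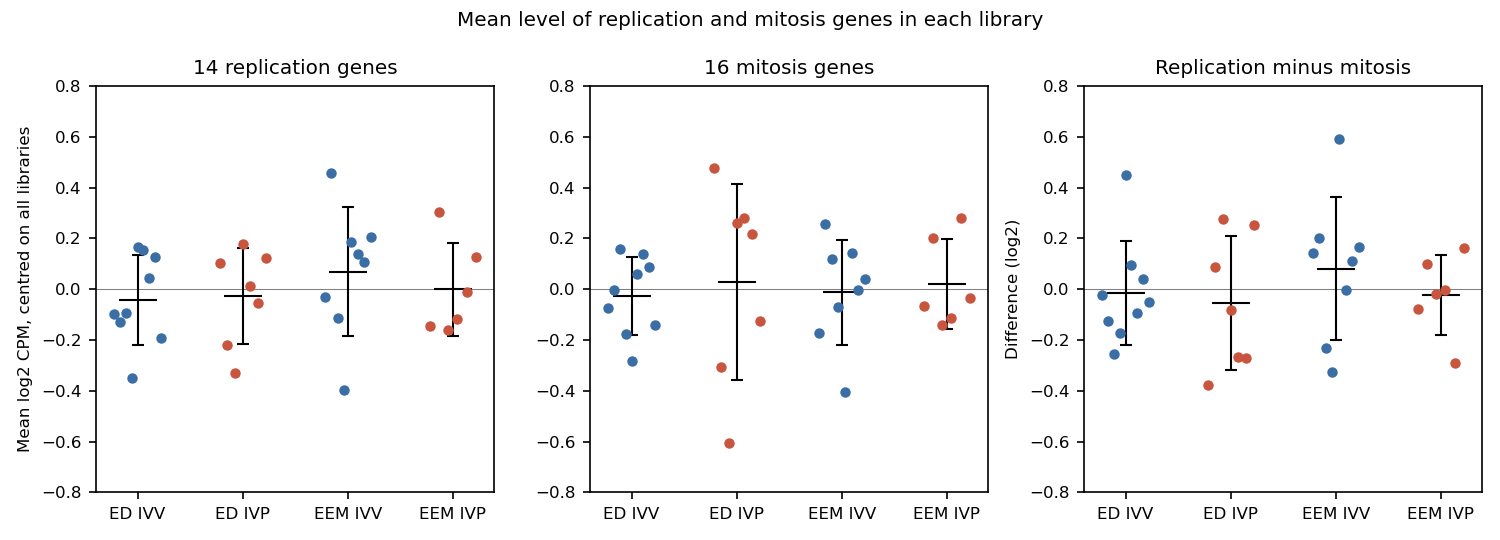
Mean centred log2 CPM of the 14 replication genes, of the 16 mitosis genes and their difference (vertical axes, log2 units) in each library (points) of the 4 groups; the horizontal mark and bar are the group mean and SD. The groups overlap in each panel, the mitosis means of the ED spread more in IVP (SD 0.39) than in IVV (SD 0.15), and the highest difference in each tissue, 0.45 in the ED and 0.59 in the EEM, belongs to the IVV embryo VE29.

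The comparison of IVP with IVV embryos asked whether the in vitro procedure changed these genes in either tissue. Genes were tested with edgeR's quasi-likelihood test over all genes of the tissue, with Benjamini-Hochberg adjustment and a threshold of 0.05. In the ED, 0 of the 38 genes were called in either direction, while 1.4% of all 15733 genes tested were called higher and 4.95% lower in IVP. At an unadjusted p under 0.05 there were 2 of the 38, and DESeq2 called 0 as well. That number was 6 without IVP14, 5 without IVPF10 and 0 without the surrogate variable, a term estimated from the data for unlabelled variation. The median log2 fold change was 0.05, beside -0.01 over all genes tested, and 23 genes were fitted above 0 and 15 below, which became 15 above and 23 below with library totals alone in place of TMM. The medians were then -0.04 and -0.11. With TMM and IVP14 left out the median of the 38 genes was 0.16, beside 0.01 over all genes. With IVPF10 left out both were -0.02.

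The intervals say how large a change could have been missed. For 37 of the 38 genes the 95% interval of the log2 fold change in the ED lay within 1 unit of 0, that is within a 2-fold change, and the exception was CDKN1A. In the EEM this held for 35 of the 38 genes. The median standard error was 0.23 in each tissue.

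Among replication genes, the MCM2 to MCM7 subunits of the helicase had IVP and IVV means that lay within each other's SD in the ED. MCM2 had a mean of 265 ± 88.9 CPM over the 7 IVP discs (SD) and of 247 ± 69.3 CPM over the 9 IVV discs (SD). MCM5 stood at 336 ± 108 and 303 ± 96.6 CPM in the same groups and MCM7 at 366 ± 150 and 354 ± 66.2 CPM. The 6 MCM genes had log2 fold changes between -0.05 and 0.13 in the ED and between -0.12 and 0.10 in the EEM, each smaller than its standard error. The fit includes a surrogate variable, and the values of MCM2 (-0.05) and MCM7 (-0.01) in the ED have the opposite sign to the differences of their means.

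The origin-loading factors CDC6 and CDT1, the helicase subunit GINS2, the sliding clamp PCNA and the nucleotide enzymes RRM1, RRM2 and TYMS were not called in either tissue. Their fitted log2 changes in the ED ran from -0.26 for CDT1 to 0.32 for RRM2. In the EEM, the mean of CDC6 was 54.9 ± 17.1 CPM in the 6 IVP libraries (SD) and 80.3 ± 19.1 CPM in the 8 IVV libraries (SD), a log2 difference of -0.54 ± 0.24 (SE) that missed the threshold (edgeR adjusted p = 0.274). Its ranges overlapped, from 28.2 to 70.7 CPM in IVP and from 54.2 to 112.9 CPM in IVV.

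POLA1, the catalytic subunit of the polymerase that primes DNA synthesis, had the smallest p of the replication genes in both tissues. In the ED its lowest, median and highest values were 25.4, 45.2 and 80.8 CPM in IVP and 40.0, 60.9 and 76.7 CPM in IVV. In the EEM they were 26.4, 45.7 and 70.5 CPM in IVP and 38.1, 68.4 and 102.5 CPM in IVV. The IVP medians were lower in both tissues, but the groups overlapped widely.

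The log2 fold change of POLA1 was -0.46 ± 0.17 (SE) in the ED and -0.57 ± 0.22 (SE) in the EEM, with edgeR adjusted p of 0.136 and 0.194. It is the only gene of the set on the X chromosome. XIST, the RNA that coats an inactive X, exceeded 1 CPM in 7 of 9 ED libraries and 6 of 8 EEM libraries of IVV embryos and in 0 of 7 and 0 of 6 of IVP embryos, so its level and the procedure nearly coincide. With the log2 CPM of XIST as a further covariate POLA1 was at -0.34 in the ED and, in the EEM, at -0.32. Without the surrogate variable and without XIST it was at -0.29 and -0.55, and with title letter C only and no surrogate variable at -0.15 and -0.53, so the ED value depends on these choices too.

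The cyclins and kinases of G1 and the G1/S step were not called in either tissue. Their median log2 change in the ED was 0.30 above that of all genes with TMM and 0.26 above it with library totals, and in the EEM 0.04 below it under each. In the ED 5 of the 6 tested were fitted higher in IVP, from 0.23 for CDK2, the partner of cyclin E, to 0.40 for CCND2, cyclin D2, and CCNE1 was at -0.05. Under library totals CCND2 was at 0.09 and CDK4 at 0.06, from 0.40 and 0.27. CCND2 had 36.8, 61.4 and 90.5 CPM (lowest, median, highest) in the ED of IVP and 14.5, 47.4 and 130.1 CPM in that of IVV, so that IVV enclosed IVP. Its log2 fold change was 0.40 ± 0.24 (SE), with a 95% interval of -0.10 to 0.90 (edgeR adjusted p = 0.419).

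In the EEM the cyclin E gene CCNE1 had the smallest p of this group, with 53.1, 63.1 and 71.7 CPM in IVP and 44.3, 77.7 and 125.1 CPM in IVV. The difference was -0.32 ± 0.22 (SE) on the log2 scale (edgeR adjusted p = 0.636). The IVV range enclosed that of IVP.

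Among mitosis genes CCNA2, cyclin A2 of S phase and early mitosis, came nearest to the threshold in the ED. It stood at 71.5, 84.7 and 148.7 CPM in IVP and at 62.1, 72.0 and 79.9 CPM in IVV, and 4 of the 7 IVP libraries lay above each IVV library. The log2 fold change was 0.45 ± 0.17 (SE), with an interval of 0.11 to 0.80 and an edgeR adjusted p of 0.119. The highest IVP values were 148.7 and 147.8 CPM in embryos IVPF13 and IVPF14, whose titles end in the letter A, a mark that the labels do not explain. With the letter as a further term the log2 difference of CCNA2 was 0.40, and among embryos whose titles end in C, fitted without the surrogate variable, it was 0.20.

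The other mitosis genes moved less than their errors allowed to call. Their log2 fold changes ran from -0.39 for TOP2A, the topoisomerase that untangles chromosomes, to 0.39 for AURKB, the kinase of the chromosomal passenger complex, in the ED. In the EEM they ran from -0.37 for AURKA, the kinase of spindle poles, to 0.31 for MKI67, the gene of the Ki-67 proliferation antigen. AURKA had 73.0, 122.7 and 211.0 CPM in the EEM of IVP and 125.5, 168.6 and 254.2 CPM in that of IVV (-0.37 ± 0.23 SE, edgeR adjusted p = 0.587). The groups shared most of their range.

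In the EEM 1 of the 38 genes was called, lower in IVP, and 0 were called higher, where 2.29% of all 14718 genes tested were called higher and 1.52% lower. The called gene was CDKN1A, the p21 inhibitor that holds back cyclin E and cyclin A kinases. Its lowest, median and highest values were 18.8, 23.2 and 55.3 CPM in the EEM of IVP and 39.8, 67.7 and 117.7 CPM in that of IVV. The IVP mean was 31.1 ± 15.3 CPM (SD, n = 6), against 69.1 ± 23.3 CPM for IVV (SD, n = 8). In 4 of the 6 IVP libraries CDKN1A was below each IVV library, while IVP11 (55.3 CPM) and IVPF14 (45.3 CPM) lay among them.

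CDKN1A was 2.16-fold lower in the EEM of IVP embryos, with a log2 fold change of -1.11 ± 0.27 (SE), an interval of -1.66 to -0.56 and an edgeR adjusted p of 0.0156. The fold was nearly the same with the title letter as a term (-1.10, adjusted p = 0.0316 by edgeR) and among embryos with the letter C alone, fitted without the surrogate variable (-1.11), where the edgeR adjusted p was 0.209 with 3 IVP and 6 IVV embryos. In all embryos without that variable, a term estimated from the data for unlabelled variation, the adjusted p was 0.0261 by edgeR. Among embryos with the letter A the values of CDKN1A were 25.4, 45.3 and 21.0 CPM in IVP and 69.3 and 69.4 CPM in IVV. With XIST as a covariate the change was -1.75 (edgeR adjusted p = 0.0249).

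The 2 IVV embryos with little XIST, VE3 and VE5, had 69.4 and 62.5 CPM of CDKN1A in the EEM, among the other IVV values. Markers of other cell types moved in the EEM of IVP too: of the 3 epiblast markers tested LIN28B and DPPA2 were called higher, of the 7 hypoblast markers TTR was called lower, and 0 of the 9 trophoblast markers were called. Their part in the result for CDKN1A was not tested.

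In the ED CDKN1A had 14.6, 40.5 and 78.7 CPM in IVP and 32.1, 55.2 and 85.1 CPM in IVV. The log2 fold change was -0.51 ± 0.27 (SE), with an interval of -1.07 to 0.04, and was not called (edgeR adjusted p = 0.315). The difference between the changes in ED and EEM, tested in the 13 embryos with both tissues, was 0.35 ± 0.30 (SE) on the log2 scale and not called, with an interval of -0.28 to 0.98 (edgeR adjusted p = 0.82).

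CDKN1B, the p27 inhibitor, was not called. It had 10.8, 21.9 and 40.9 CPM in the ED of IVP and 15.5, 22.3 and 34.3 CPM in that of IVV. In the EEM it had 14.9, 29.0 and 36.0 CPM in IVP and 12.2, 29.8 and 40.9 CPM in IVV. The log2 differences were -0.21 ± 0.24 (SE) in the ED and -0.13 ± 0.25 (SE) in the EEM, and the groups overlapped over most of their range. The ED value has no stable direction: it was -0.01 without the surrogate variable, 0.19 with letter C only and no surrogate variable, and up to 0.045 with an embryo left out (IVP11).

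**Figure D2:**
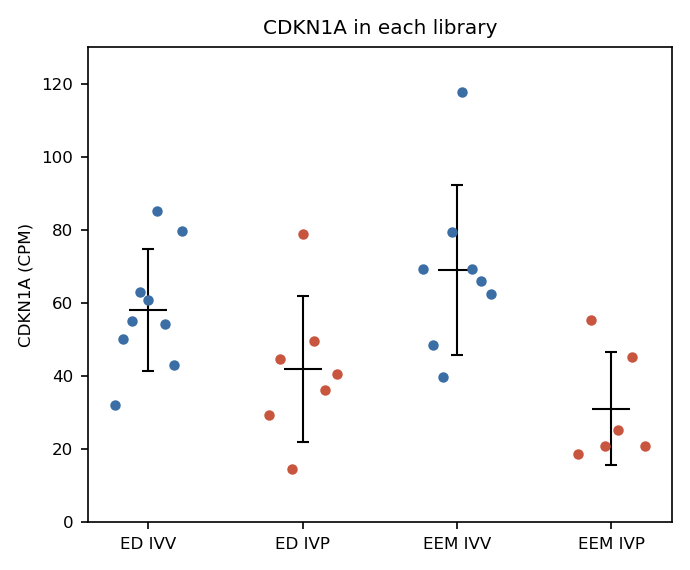
CDKN1A in CPM (vertical axis, from 0) in each library (points) of the 4 groups, with the group mean and SD as the horizontal mark and bar. In the EEM 4 of the 6 IVP points lie below the lowest IVV point at 39.8 CPM, and in the ED the groups overlap between 32.1 and 78.7 CPM.

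**Figure D3:**
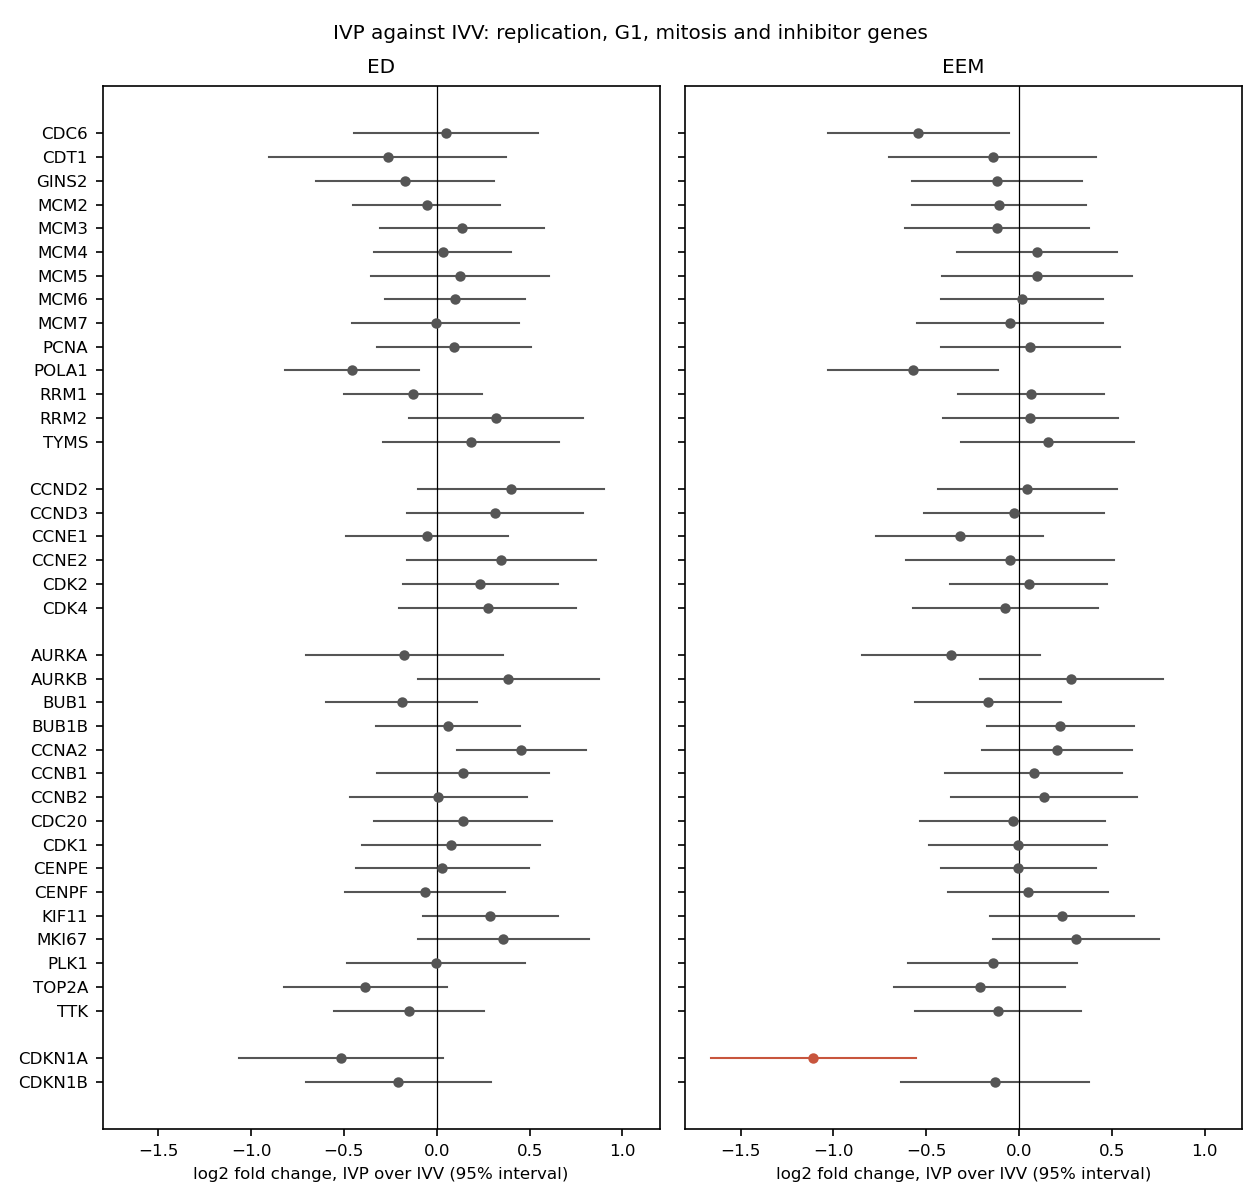
Log2 fold change of IVP over IVV (horizontal axis, points) with the 95% interval (bars) for the 38 tested genes in the ED and the EEM, in the order replication, G1 and G1/S, mitosis and inhibitors; red marks a called gene. CDKN1A in the EEM is the one red gene, at -1.11, and nearly all other intervals lie between -1 and 1.

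Further genes of the same processes were read from wider lists. Of 48 other replication genes, 56 other mitosis genes and 36 tested of 37 other G1 regulators and inhibitors, 0 were called by edgeR between IVP and IVV in either tissue. At an unadjusted p under 0.05 there were 2, 2 and 5 in the ED and 0, 2 and 1 in the EEM. Their median log2 fold changes were 0.04, 0.02 and 0.02 in the ED and -0.02, -0.01 and -0.03 in the EEM. Under library totals 1 was called, CDKN2A, an inhibitor of CDK4 and CDK6, lower in the ED of IVP. With TMM it was at -1.34 ± 0.46 (SE, edgeR adjusted p = 0.0881) on 2 to 13 counts in each IVP library and 10 to 32 in each IVV library.

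Markers of the disc did differ between the same libraries. In the ED of IVP, 1 of 4 tested epiblast markers (POU5F1) and 5 of 6 tested streak and mesoderm markers were called lower (MIXL1 had a mean of 1.90 CPM in IVP and 8.71 CPM in IVV), and 0 of 9 trophoblast markers were called. MUC1, 1 of 2 tested uterus markers, was called higher (1.10, edgeR adjusted p = 0.0162). Of the other epiblast markers NANOG was at -1.34, LIN28B at -0.03 and DPPA2 at 1.19 on the log2 scale, with edgeR adjusted p of 0.0517, 0.972 and 0.0518.

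Spread between embryos was compared as well. The SD of log2 CPM was larger in IVP than in IVV for 32 of the 38 genes (84.2%) in the ED, beside 67.8% of all 15733 genes tested. The median SD over the 38 genes was 0.58 in IVP and 0.38 in IVV. In the EEM the SD was larger in IVP for 14 of the 38 (36.8%), beside 43.0% of all genes. No test was made on these counts, as genes of the cell cycle share their embryos.

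A few libraries held the extreme values. The ED of IVP14 was the lowest of its group in 7 of the 16 mitosis genes and 4 of the 14 replication genes, and 15 of the 16 mitosis genes were below their group median or at it. CDC20, which activates the anaphase-promoting complex, was 58.0 CPM there against a group median of 255.3 CPM, and AURKB was 19.7 CPM against 75.8 CPM. IVP11 held the lowest value in 7 mitosis and 5 replication genes and the highest in 2 and 3. IVP10 was highest in 9 of the 16 mitosis genes and lowest in 0. IVPF10 was highest in 8 of the 14 replication genes and lowest in 3 of them, and highest in 4 and lowest in 2 of the mitosis genes.

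The comparison of ED with EEM asked whether the tissues differ in these genes, with each embryo as its own control. Folds come from the 13 embryos with both tissues, while the CPM values given are those of all libraries of a group. Of the 38 genes, 2 were called higher and 2 lower in the ED, or 5.26% each, while 14.4% of all 16784 genes tested were called higher and 10.1% lower. Both shares were below those over all genes. The median log2 difference was -0.12, beside -0.09 over all genes.

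This direction depends on the scaling. With library totals alone in place of TMM, the median of all genes moved to 0.12 and that of the 38 genes to 0.09, and 3307 genes were called higher and 230 lower in place of 2412 and 1692. Another scaling shifts all genes of this paired comparison by nearly the same amount, so distances from the median of all genes are nearly fixed and say nothing of stability. The replication genes lay 0.01 above that median, the mitosis genes 0.01 below, the G1 and G1/S genes 0.19 below and the 2 inhibitors 0.20 below. Under library totals TOP2A, BUB1B and MCM5 (0.35, edgeR adjusted p = 0.0332) were called higher and 0 of the 38 lower.

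TOP2A was higher in the ED. Its lowest, median and highest values were 66.5, 149.0 and 236.4 CPM in the ED and 68.9, 88.4 and 128.6 CPM in the EEM of IVP, and 106.7, 157.1 and 284.3 CPM in the ED and 46.1, 121.2 and 152.4 CPM in the EEM of IVV. The ED held more in 12 of the 13 embryos, and the exception was 66.5 against 68.9 CPM in IVP11. The log2 difference was 0.56 ± 0.14 (SE), or 1.47-fold (edgeR adjusted p = 0.00751).

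BUB1B, the checkpoint kinase BUBR1 that delays anaphase until all chromosomes are attached, was also higher in the ED. It had 17.1, 35.1 and 44.3 CPM in the ED and 17.2, 27.3 and 32.5 CPM in the EEM of IVP, and 14.6, 33.9 and 44.2 CPM in the ED and 6.52, 25.8 and 34.5 CPM in the EEM of IVV. The ED was higher in 11 of 13 embryos, by 0.44 ± 0.12 (SE) on the log2 scale (edgeR adjusted p = 0.0124). The groups overlapped and the difference rests on the pairs.

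CCND2, cyclin D2, was lower in the ED in 13 of 13 embryos. In IVV it had 14.5, 47.4 and 130.1 CPM in the ED and 39.6, 68.3 and 232.5 CPM in the EEM, and in IVP 36.8, 61.4 and 90.5 CPM in the ED and 41.0, 82.9 and 101.3 CPM in the EEM. The log2 difference was -0.52 ± 0.11 (SE) with an edgeR adjusted p of 0.00149, and -0.31 with an adjusted p of 0.0506 under library totals. Among IVV embryos VE19 had the highest value in both tissues and VE26 the lowest in both.

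CDKN1B was lower in the ED in 11 of 13 embryos, with a log2 difference of -0.42 ± 0.13 (SE) and an edgeR adjusted p of 0.0243. Under library totals the difference was -0.21 and not called (edgeR adjusted p = 0.351). The exceptions were the IVV embryos VE4 and VE29, and without VE26 the adjusted p was 0.0568. CDKN1A did not differ beyond its error, at -0.16 ± 0.15 (SE), with an interval of -0.47 to 0.15, and was higher in the ED in 5 of 13 embryos.

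All 6 tested G1 and G1/S genes were fitted lower in the ED, with a median of -0.28, beside -0.09 over all genes, but 4 of the 6 under library totals, where CDK2 (0.02) and CDK4 (0.05) changed sign. CCND2 was the one called. CCND3, CCNE1 and CCNE2 stood at -0.28 ± 0.11, -0.28 ± 0.12 and -0.31 ± 0.13 (SE), with edgeR adjusted p of 0.0802, 0.0889 and 0.0792. CDK2 and CDK4 were at -0.19 and -0.16. By contrast the 14 replication genes had a median of -0.08 and the 16 mitosis genes of -0.10, close to that of all genes, and 0 replication genes were called.

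CDC6, which loads the helicase at origins, had the smallest p of the replication genes, at -0.31 ± 0.12 (SE) and an edgeR adjusted p of 0.0619. It was lower in the ED in 10 of 13 embryos. In the ED CDC6 ran from 25.5 to 109.6 CPM in IVP and from 38.6 to 78.2 CPM in IVV, and in the EEM from 28.2 to 70.7 and from 54.2 to 112.9 CPM.

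**Figure D4:**
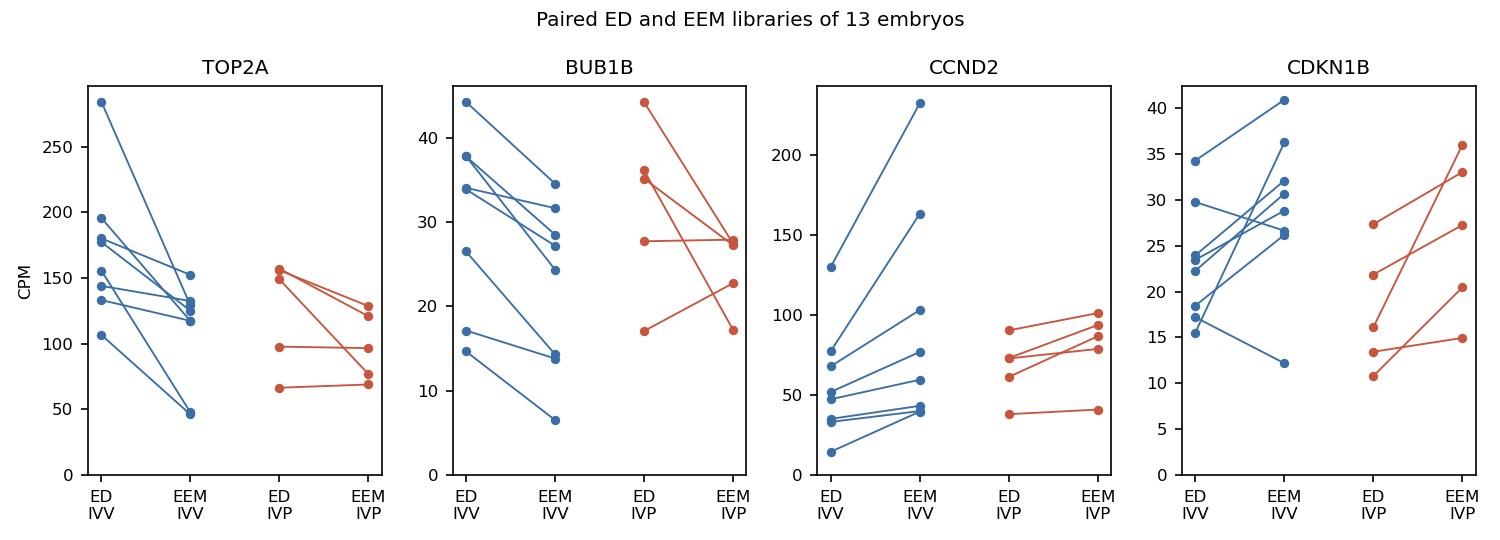
TOP2A, BUB1B, CCND2 and CDKN1B in CPM (vertical axes, from 0) in the ED and the EEM of the 13 embryos with both tissues; a line joins the tissues of 1 embryo, blue for IVV and red for IVP. TOP2A falls from ED to EEM in 12 embryos and BUB1B in 11, while CCND2 rises in 13 and CDKN1B in 11.

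Markers moved with the tissue as well. In the ED, 3 of the 4 tested epiblast markers and 5 of 6 tested streak and mesoderm markers were called higher, 3 hypoblast markers were higher and 2 lower, and of 9 trophoblast markers 0 were higher and 2 lower, PAG11 and TFAP2C. ALAS2, a heme enzyme of red cells, was the 1 of 2 tested maternal blood markers called higher (2.39, edgeR adjusted p = 5.27e-05), and in IVV so was LTF, 1 of 2 tested uterus markers (2.20, edgeR adjusted p = 0.00512). The other blood markers were low: HBB, the beta globin of red cells, was at 0 in the 9 ED libraries of IVV and at most 0.0741 CPM in any library, PTPRC at most 0.984 CPM and CD3E at most 0.192 CPM. CD14, the other tested blood marker, reached 3.62 CPM in the ED and 3.48 CPM in the EEM. The summed level of the 5 blood markers was 6.86 to 44.4 CPM over the ED libraries and 0.644 to 8.94 CPM over the EEM libraries. It was mostly ALAS2 in the ED, and ALAS2 and CD14 in the EEM, with means of 2.28 and 2.02 CPM in the EEM of IVP. Their part in the differences of TOP2A, BUB1B, CCND2 and CDKN1B was not tested.

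Among other genes of these processes, 0 of the 48 replication genes were called higher in the ED and 3 lower, beside 14.4% and 10.1% of all genes. The lower genes were POLE4 (-0.48 ± 0.11 SE) and POLE2 (-0.31 ± 0.11 SE), subunits of polymerase epsilon, and SLBP (-0.31 ± 0.10 SE), which binds histone mRNA. Of the 56 mitosis genes KIF14, a motor of cell separation, was higher (0.38 ± 0.13 SE) and MAD2L1, ANLN and UBE2S were lower. MAD2L1 encodes the checkpoint protein MAD2, which acts with BUBR1, and had a log2 difference of -0.48 ± 0.12 (SE). ANLN, the anillin of the cleavage furrow, was at -0.29 ± 0.09 (SE) and UBE2S, an enzyme of the anaphase-promoting complex, at -0.57 ± 0.18 (SE).

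Of 37 G1 regulators and inhibitors 1 was called higher and 5 lower in the ED. The lower genes were CCNG2, an atypical cyclin of arrested cells, at -0.59 ± 0.12 (SE), MDM2, a ubiquitin ligase, at -0.36 ± 0.11 (SE), and CDK7, CDKN2C and CDK6. Under library totals the wider lists of replication, mitosis and G1 genes had 1, 3 and 3 genes called higher and 0, 0 and 1 lower, so most of the lower calls depend on the scaling.

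Within IVV embryos the tissues differed in 5 genes, with 2 called higher (5.26%) and 3 lower (7.89%), beside 15.6% and 6.55% of all genes. With library totals alone, 3430 genes were called higher and 179 lower in place of 2611 and 1100. TOP2A (0.73) and BUB1B (0.53) were higher in the ED of 8 of 8 IVV embryos. CCND2 (-0.67) was lower in 8 of 8, and CCND3 (-0.41 ± 0.14 SE, edgeR adjusted p = 0.0422) and CDC6 (-0.45 ± 0.15 SE, edgeR adjusted p = 0.0359) in 7 of 8.

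The ED of IVV embryos held 34.5, 44.6 and 58.2 CPM of CCND3 and the EEM 32.8, 60.7 and 113.1 CPM (lowest, median, highest). CDC6 was 56.2 CPM at the median in the ED and 80.8 CPM in the EEM. The calls of BUB1B, CCND3 and CDC6 lay near the threshold, and with an IVV embryo left out the log2 differences ran from 0.43 to 0.59, -0.49 to -0.34 and -0.51 to -0.36. By edgeR BUB1B was not called without VE19, VE29 or VE5 (adjusted p up to 0.0682), CCND3 without VE26, VE29, VE3, VE4 or VE5 (up to 0.118) and CDC6 without VE19, VE24, VE29, VE3 or VE5 (up to 0.117). Under library totals CCND3 was at -0.17 and CDC6 at -0.20, and neither was called (edgeR adjusted p of 0.457 and 0.487).

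Within IVP embryos 0 of the 38 genes were called by edgeR, beside 4.18% of all genes higher and 0.649% lower, and 1 had an unadjusted p under 0.05. Only 5 embryos entered here. That gene was CDKN1B, lower in the ED in 5 of 5 embryos (-0.60 ± 0.21 SE, edgeR adjusted p = 0.122). The number of genes with an unadjusted p under 0.05 rests on single embryos, being 4 without IVP10 and 0 without IVPF13. TOP2A was at 0.28 ± 0.22 (SE) and CCND2 at -0.28 ± 0.17 (SE), with the same signs as in IVV. AURKA was at -0.32 ± 0.20 (SE), and was higher in the ED in 2 of the 5 embryos and lower in 3. CDT1 was at -0.48 ± 0.29 (SE), likewise higher in 2 and lower in 3. DESeq2 called 0 as well.

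Whether the tissues differ more in IVV than in IVP was tested as the interaction of tissue and procedure. By edgeR 0 of the 38 genes were called, beside 0.107% of all genes higher and 0.918% lower, and 0 had an unadjusted p under 0.05, nor did DESeq2 call any. The largest fitted values belonged to TOP2A (-0.45 ± 0.28 SE, interval -1.04 to 0.13) and CCND2 (0.39 ± 0.21 SE, interval -0.06 to 0.83). CDC6 was at 0.35 ± 0.24 (SE) and CDKN1B at -0.29 ± 0.27 (SE). Calls in IVV and none in IVP thus do not show a difference between the procedures, and the intervals of 37 of the 38 genes lie within 1 log2 unit of 0.

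**Figure D5:**
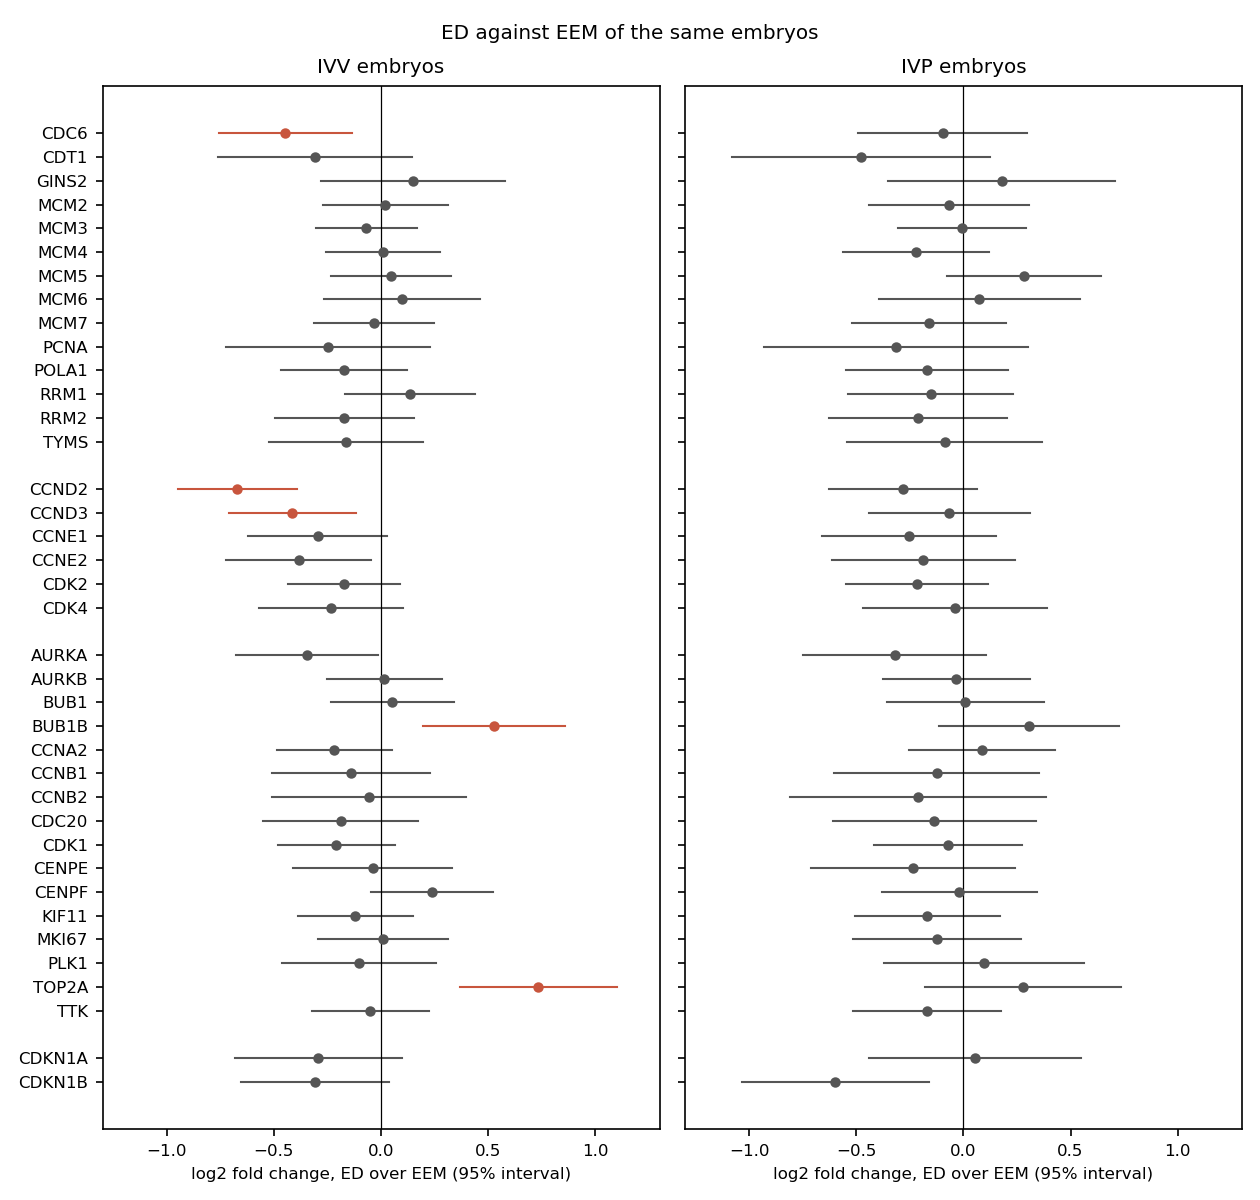
Log2 fold change of ED over EEM (horizontal axes, points) with the 95% interval (bars) for the 38 tested genes within the 8 IVV embryos and within the 5 IVP embryos; red marks called genes. In IVV, TOP2A and BUB1B lie to the right and CCND2, CCND3 and CDC6 to the left of 0, and in IVP no gene is red and the points of TOP2A and CCND2, at 0.28 and -0.28, lie on the same sides.

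The embryos were also followed from one tissue to the other. Among the 8 IVV embryos with both tissues, the same embryo was lowest in ED and EEM for 19 of the 38 genes, beside 38.8% of all genes tested, and the highest for 15 (39.5%), beside 32.8%. Among the 5 IVP embryos this held for 15 (39.5%) and 8 (21.1%) of the 38, beside 43.4% and 40.7% of all genes. Both tissues of an embryo share its genome, uterus and handling, so these counts are a description.

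VE28 was the lowest IVV embryo with both tissues in ED and EEM alike for 6 replication genes: MCM2, MCM3, MCM4, MCM7, CDC6 and POLA1. MCM4 was 85.1 CPM in its ED and 79.7 CPM in its EEM, against group medians of 186.0 and 175.9 CPM. MKI67 was also lowest in both of its tissues, whereas PCNA was highest in both. The same libraries had the highest CDK1 of the IVV embryos, 193.8 and 233.8 CPM, against medians of 116.4 and 138.8 CPM. Its replication mean, the lowest of each tissue, was -0.35 in its ED and -0.40 in its EEM, and its mitosis mean was -0.18 and -0.07.

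VE29 had the highest replication mean minus mitosis mean in both tissues. CDK1, the kinase that starts mitosis, was 38.9 CPM in its ED and 60.0 CPM in its EEM, the lowest IVV values of both tissues. MCM3 was 387.4 and 477.2 CPM against medians of 231.2 and 237.4 CPM, and MCM5 513.2 and 505.3 CPM against 280.7 and 275.9 CPM, the highest of their groups. The checkpoint kinase TTK was lowest there too, at 20.1 and 16.2 CPM. Its EEM also had the highest CDKN1A, 117.7 CPM, and the lowest CDKN1B, 12.2 CPM.

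VE19 had the lowest BUB1B, 14.6 CPM in the ED and 6.52 CPM in the EEM, the lowest TOP2A, 106.7 and 46.1 CPM, and the highest CCND2, 130.1 and 232.5 CPM, of the IVV embryos. Its AURKA was the highest of the IVV embryos in both tissues, 220.0 and 254.2 CPM. Mitosis genes of 1 embryo thus lay at both ends of their ranges.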

How the data were processed

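RNA of 30 libraries from the ED and EEM of day 15 embryos was read as 100 base pairs of reads without strand information. Per the study's methods and the submitters' processing notes, reads were filtered with SOAPnuke and checked with FastQC 0.11.9. They were aligned with STAR 2.7.0b to ARS-UCD1.3 and counted with featureCounts of Subread 2.0.3. The notes also name Trimmomatic, without a version. The values deposited by the authors are raw counts per Entrez gene ID, neither filtered nor normalized. Symbols came from the ARS-UCD2.0 annotation by ID (31630 of 35092 genes, 99.5% of counts), used for names, chromosomes and neighbours only.

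Each tissue was tested with edgeR 4.0.16 in R 4.3.3 (filterByExpr with at least 10 counts, TMM, quasi-likelihood test, Benjamini-Hochberg over all genes, threshold 0.05), with 1 surrogate variable from svaseq (sva 3.50.0), since the study controlled for morphology with sva. The ED and EEM, and their interaction with procedure, were tested in the 26 libraries of 13 embryos with embryo as a block. The pairing comes from the embryo name in the titles, and the same embryo was lowest in both tissues for 38.8% of all genes among 8 IVV embryos. Log2 CPM used a prior count of 2. Scripts were tested on simulated data. Of 100 simulated 2-fold changes, 27 were recovered for IVP against IVV in the ED and 32 in the EEM. For ED against EEM 47 of 100 were recovered, and for the interaction 1 of 100. At 4-fold the numbers were 87, 94, 91 and 33 of 100, so many 2-fold changes would be missed.

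The genes, lists and tests were chosen with earlier results of these data known. Full values are given, per comparison and role, for the called genes with the smallest p (up to 3 per direction), or else for the gene with the smallest p, and always for CDKN1A and CDKN1B; genes named for VE19, VE28, VE29 and the IVP libraries were chosen after their values were seen. Alternatives were DESeq2 1.42.0, other scalings, filters and surrogate variables, halved counts, the title letter, XIST as a covariate, no block and leaving out each embryo. Promoter motifs were not searched. Methylation data were not analysed here. A result among the other G1 regulators is not reported here.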

Additional observations from a re-analysis of the deposited data

Results flagged for a closer look

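A value was singled out when its gap to the nearest of the other embryos, divided by the range of its group, passed Dixon's 95% limit. Gaps and ranges were taken on the log2 CPM scale, while the values of genes below are printed in CPM. Among 172 sets of values (38 genes and 5 means, in 4 groups) 11 passed, and chance alone marks about 1 in 20.

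Of these 11, 6 belonged to the IVV embryo VE29. In its ED, CDK1 was 38.9 CPM against 99.7 CPM in the next embryo, TTK was 20.1 CPM against 29.6 CPM, and the replication mean minus the mitosis mean was 0.45 against 0.09. In its EEM, TTK was 16.2 CPM against 28.9 CPM, TYMS, the thymidylate synthase, was 35.3 CPM against 60.4 CPM, and CDKN1B was 12.2 CPM against 26.2 CPM. In the ED of VE28 MKI67 was 65.5 CPM against 104.2 CPM.

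The other 4 were in the ED of IVP embryos. In IVPF10 CCND3 was 19.8 CPM against 46.8 CPM and MCM5 was 126.8 CPM against 261.1 CPM. In IVP11 RRM1 was 63.2 CPM against 123.8 CPM and TTK was 12.6 CPM against 30.3 CPM.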

How the results depend on the processing

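Over all alternatives and embryos left out, 650 values of single genes kept their direction and their side of the threshold. A further 30 were no longer called, 2 became called and 5 changed sign. Of the counts and means 418 stayed within their limits and 14 did not. Part of this was fixed beforehand, so these tallies do not measure stability. Leaving out an embryo of the other procedure barely moves a fold change between tissues within IVP or IVV. Another scaling barely moves the replication mean minus the mitosis mean, and many of the genes were not called to begin with. In the EEM the count of genes lower in IVP went from 1 to 0 with title letter C only and no surrogate variable, 2 choices changed together. CDKN1A stayed called there in 9 of 10 alternatives and with each of 14 embryos left out, the adjusted p reaching 0.0456 without IVP10. For CDKN1B in the ED, the change of IVP against IVV was 0.19 with letter C only and no surrogate variable, -0.01 without the surrogate variable in all embryos, and ran from -0.29 to 0.045 with an embryo left out. Without the replicate block, which the pairing by embryo calls for, the genes called between ED and EEM fell to 0 higher and 0 lower, in IVV also to 0 and 0. Under library totals 0 were lower (from 2), in IVV 1 (from 3), and CDKN1A was at 0.049 between ED and EEM. With an embryo left out, 2 to 5 genes were lower in the ED (5 without IVPF13), in IVV 1 to 3 were higher (1 without VE19, VE29 or VE5) and 1 to 4 lower (1 without VE29, VE3 or VE5), and CDKN1A between tissues in IVP ran from -0.17 to 0.20. Other causes of these shifts were not tested. Counts of 3 or fewer in a library are at the floor, which among these genes concerns CCND1.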
